A study of Mus musculus with 18 samples.

Results

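The 39 protein-coding Hox genes of the mouse, those named Hoxa, Hoxb, Hoxc or Hoxd with a number, were taken by name from 57180 genes in a table of estimated counts, of which 21400 are protein coding. They were read in cultured smooth muscle cells from the thoracic aorta of C57BL/6 mice, in 6 groups of 3 libraries. Cells that received an siRNA against Itgav, the gene of the integrin αV receptor chain, were given TGF-β, given PDGF-BB or left unstimulated, and cells that received a scramble siRNA were handled in the same 3 ways. All cells were therefore transfected, and no untransfected cells were analysed here. Doses, times, siRNA sequences and the number of animals behind the cells are not stated in the sources used here. Nothing in the labels says that the 3 libraries of a group came from separate cultures. Each p-value below rests on how far libraries of the same group vary, estimated jointly over all 6 groups. That variation may be technical alone.

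Hox genes encode homeodomain transcription factors that lie in clusters on separate chromosomes, and genes at the same place in different clusters form paralogue groups. Low numbers are switched on early and toward the head of the embryo, high numbers late and toward the tail, and the combination that a cell keeps after birth records its place along the body axis. Smooth muscle of the aorta is known to keep such a record, which differs between the arch and the descending aorta. HOX proteins bind DNA together with the PBX and MEIS families, and Polycomb complexes keep unused Hox genes silent.

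The deposited gene counts totalled 17705072 to 21592916 per library, and the 39 Hox genes together had 266.9 to 305.4 CPM of the raw totals. Of the 39, 25 passed the filter on low counts and entered the test. Itgav, the target, had 14.1 to 29.7 CPM (counts scaled to a common library size with TMM factors, the usual counts-per-million scale) in the 9 siRNA libraries, against 300.2 to 553 CPM in the 9 scramble libraries. All 7 smooth muscle markers were detected in every group. So was every endothelial, adventitial fibroblast and mesothelial marker, so detection alone does not identify the cells. In unstimulated scramble cells Acta2 (1065 CPM) and Tagln (720) led the 7, followed by Smtn (138) and Lmod1 (123). Myh11 (23.0), Cnn1 (18.5) and Myocd (2.54) lay below the mesothelial Upk1b (80.0) and the fibroblast marker Cd34 (77.3). The summed level of the smooth muscle markers with TGF-β was 3240 to 3400 CPM in siRNA and 6610 to 7170 CPM in scramble cells. It was 364 to 374 CPM and 941 to 970 CPM with PDGF-BB, and 983 to 1100 CPM and 2070 to 2120 CPM unstimulated. The 6 mesothelial markers summed to 25.3 to 31.1 CPM in siRNA and 62.1 to 64.6 CPM in scramble cells with TGF-β, 81.5 to 90.0 CPM and 194 to 219 CPM with PDGF-BB, and 90.5 to 93.2 CPM and 155 to 166 CPM unstimulated. The 8 adventitial fibroblast markers summed to 32.5 to 36.5 CPM in siRNA and 37.7 to 38.7 CPM in scramble cells with TGF-β, 120 to 129 CPM and 149 to 156 CPM with PDGF-BB, and 89.5 to 90.0 CPM and 95.7 to 98.4 CPM unstimulated. Single fibroblast markers went both ways with siRNA: of 7 tested, 3, 4 and 5 were higher with TGF-β, with PDGF-BB and unstimulated, while Cd34 was lower in each medium (-1.06, -0.94 and -0.79 log2). Summed levels over all libraries were 65.4 to 116 CPM for 8 endothelial, 7.41 to 20.6 CPM for 6 macrophage and 8.6 to 16.4 CPM for 4 Schwann cell markers. Sox10, a defining Schwann cell gene, was at 0 in 4 of the groups, and C1qa or Adgre1 of the macrophage list in 3. Single mesothelial markers also went both ways: with PDGF-BB in scramble cells Krt19, Msln and Upk1b rose (1.51, 1.76 and 0.27 log2) and Upk3b fell (-1.91). With TGF-β in scramble cells the endothelial Erg rose (2.69), while Kdr, Tie1, Egfl7 and Esam fell (-0.74, -0.66, -1.44 and -1.04). Markers of every list thus moved with the siRNA and with both stimuli, and their part in the Hox results was not tested. In these bulk samples fewer cells of a type and less RNA per cell cannot be told apart.

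Promoter sequences from RefSeq (GRCm38.p6, 250 bases before to 50 after the start) were found for 22 of the 39 members. Among the well expressed members, those of Hoxa5, Hoxa2, Hoxb4 and Hoxb8 have their start at the 5′ end of the transcript that held most of the gene's counts, and they are shown because these genes answered the treatments differently: Hoxb4 rose in some comparisons, Hoxa5 and Hoxa2 rose in some and fell in others, and Hoxb8 passed the test in none. Capitals mark TGACAG, a MEIS-type motif, and TGATNNAT, a PBX-HOX-type motif, searched on both strands. The sequences, each written along its gene's strand, lie at chr6:52204538-52204837 (minus strand, Hoxa5), chr6:52164782-52165081 (minus strand, Hoxa2), chr11:96318017-96318316 (plus strand, Hoxb4) and chr11:96281655-96281954 (plus strand, Hoxb8).
Hoxa5: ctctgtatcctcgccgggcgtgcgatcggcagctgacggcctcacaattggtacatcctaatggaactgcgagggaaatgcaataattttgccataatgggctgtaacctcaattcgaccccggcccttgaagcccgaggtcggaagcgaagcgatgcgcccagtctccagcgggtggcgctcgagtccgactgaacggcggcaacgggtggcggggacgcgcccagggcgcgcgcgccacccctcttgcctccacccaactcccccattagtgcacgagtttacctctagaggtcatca
Hoxa2: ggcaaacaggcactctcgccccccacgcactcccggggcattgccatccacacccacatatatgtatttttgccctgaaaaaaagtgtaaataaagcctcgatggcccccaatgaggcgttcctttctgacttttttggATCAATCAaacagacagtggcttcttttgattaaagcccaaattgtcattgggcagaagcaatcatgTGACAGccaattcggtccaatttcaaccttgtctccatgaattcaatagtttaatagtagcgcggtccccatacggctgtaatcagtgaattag
Hoxb4: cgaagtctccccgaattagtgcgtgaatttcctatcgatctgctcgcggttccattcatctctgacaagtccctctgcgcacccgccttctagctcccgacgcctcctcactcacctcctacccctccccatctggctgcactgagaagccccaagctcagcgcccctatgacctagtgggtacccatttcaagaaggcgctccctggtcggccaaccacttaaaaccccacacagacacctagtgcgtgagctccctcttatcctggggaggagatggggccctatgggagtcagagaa
Hoxb8: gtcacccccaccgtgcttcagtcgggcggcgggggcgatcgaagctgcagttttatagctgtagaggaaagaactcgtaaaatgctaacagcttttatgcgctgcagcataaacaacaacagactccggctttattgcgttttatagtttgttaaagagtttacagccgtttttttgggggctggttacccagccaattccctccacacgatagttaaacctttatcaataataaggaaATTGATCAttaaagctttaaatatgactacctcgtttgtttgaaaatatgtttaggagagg
The Hoxa2 window held both motifs, which do not overlap there, and the Hoxb8 window held the PBX-HOX-type motif. Of 24 promoter windows of members, 2 (8.33%) held TGACAG and 4 (16.7%) held TGATNNAT, against 19.2% and 8.85% of 32851 promoter windows of the mouse genome. A match is a string of letters and no measured binding site, and the absence of one says nothing of the factor.

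Levels were compared between genes only per length, as CPM per kb of annotated exon. In unstimulated scramble cells the Hoxa and Hoxb clusters held nearly all of the Hox signal. Hoxb genes summed to 67.9 ± 0.951 CPM per kb (SD, n = 3), or 56.7% of the Hox total, and Hoxa genes to 48.5 ± 0.875 CPM per kb, or 40.5%. Hoxc genes summed to 2.11 ± 0.177 and Hoxd genes to 1.19 ± 0.165 CPM per kb, which is 1.76% and 0.99% of the total. In GRCm38 the 11 Hoxa genes lie on chromosome 6 (minus strand), the 10 Hoxb genes at chr11:96194316-96368256, the 9 Hoxc genes at chr15:102921103-103036852 and the 9 Hoxd genes at chr2:74668310-74765142 (plus strand).

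**Figure D1:**
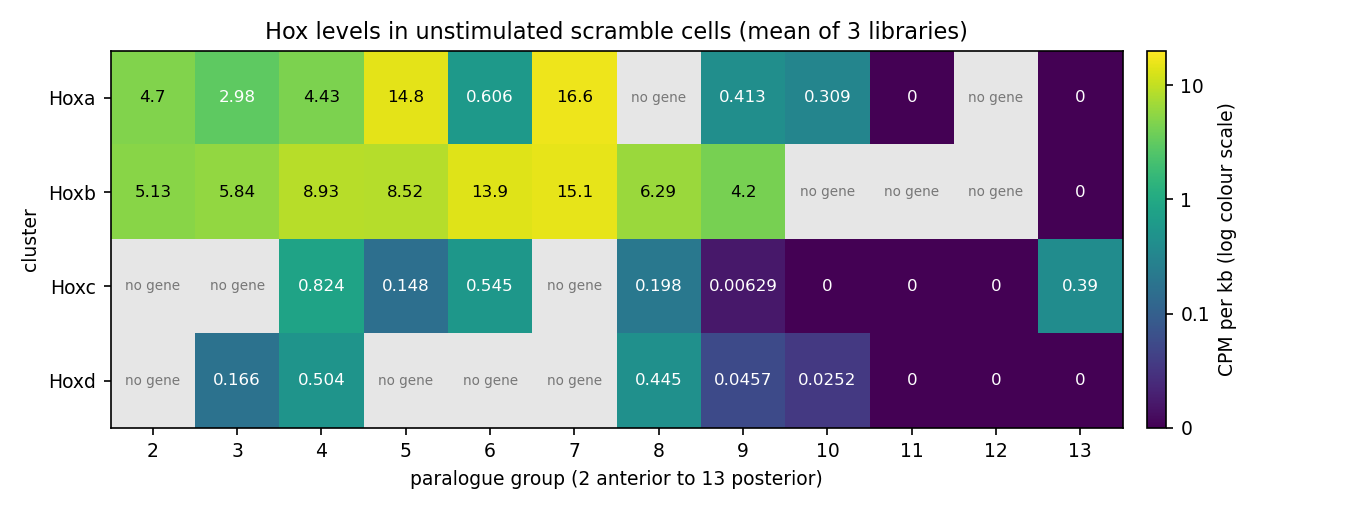
Mean level of each Hox gene of paralogue groups 2 to 13 in unstimulated scramble cells (3 libraries), by cluster (rows) and paralogue group (columns), in CPM per kb on a log colour scale with the value printed in each cell. Hoxa and Hoxb genes of groups 2 to 9 are high apart from Hoxa6 and Hoxa9, Hoxc and Hoxd genes are low, and groups 10 to 13 are near 0 apart from Hoxa10 and Hoxc13.

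Within these clusters the levels peaked in the middle. The leading 4 genes were Hoxa7 at 16.6 ± 0.755, Hoxb7 at 15.1 ± 0.531, Hoxa5 at 14.8 ± 1.08 and Hoxb6 at 13.9 ± 0.749 CPM per kb (SD, n = 3 each), and they held 50.5% of the Hox total. The library values of Hoxa7 lay above those of Hoxb7, while those of Hoxb7, Hoxa5 and Hoxb6 overlapped from one to the next. Hoxb4 (8.93 CPM per kb) and Hoxb5 (8.52) followed and overlapped. Below them came Hoxb8 (6.29) and Hoxb3 (5.84), whose values overlapped, and then a run from Hoxb2 (5.13) over Hoxa2 (4.70) and Hoxa4 (4.43) to Hoxb9 (4.20), in which each gene overlapped the next. The leading 14 genes held 96.1% of the Hox total. Dividing by the length of the transcripts actually counted kept the same 4 genes in the lead and the same 14 at the top, but changed levels and order within them. Among the leading 4, Hoxb6 (16.2 CPM per kb) then stood above Hoxa5 (14.8). Hoxa3 then had 7.34 in place of 2.98 CPM per kb and Hoxb2 had 9.83 in place of 5.13, above Hoxb4.

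By paralogue group the sum was highest in group 7, with 31.8 ± 1.21 CPM per kb, and next in group 5, with 23.4 ± 0.612 CPM per kb. Groups 6 and 4 had 15.1 ± 0.763 and 14.7 ± 1.004 CPM per kb, a difference smaller than the spread between libraries. Groups 2, 3 and 8 held 6.93 to 9.83 CPM per kb, and group 9 held 4.67 ± 0.364. The order of the groups also depended on the length used: per length of the counted transcripts, groups 7, 5 and 6 led with 42.0 ± 1.62, 26.3 ± 0.510 and 17.7 ± 0.843 CPM per kb, and after them group 3 had 15.6 ± 0.257, group 4 15.3 ± 1.12 and group 2 14.5 ± 1.10. Groups 10 to 13 together were represented by a pair of genes among 12: Hoxa10 and Hoxc13 passed the filter. Genes of groups 5 to 9 are known to act in the skeleton at the thoracic level, the position that the source tissue gives. Groups 8 and 9 lay below groups 2 to 4 by either length, at 7.18 and 5.08 CPM per kb of counted transcript. Whether the levels match the position was not tested.

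Gaps interrupted this pattern. Hoxa6 had 13, 11 and 9 counts in the unstimulated scramble libraries, while its neighbours on either side had 554 to 586 counts (Hoxa5) and 942 to 1090 counts (Hoxa7). Hoxb1, which is known to mark a single segment of the hindbrain, had no count in any of the 18 libraries although Hoxb2 beside it had 255 to 456. Hoxc13, a gene known for its part in hair and nail, had 24, 14 and 22 counts in unstimulated scramble cells, where Hoxc10, Hoxc11 and Hoxc12 were at 0 and Hoxc9 had 1, 0 and 0. Hoxc13 was thus read without its neighbours.

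The 14 members that did not enter the test were all low. Hoxb1, Hoxc11, Hoxc12, Hoxd1, Hoxd11 and Hoxd12 had 0 counts in all 18 libraries. For counting error alone, a single library at 0 allows up to 3 counts, or 0.137 to 0.174 CPM. All 18 at 0 together allow less per library. Hoxa11, Hoxa13, Hoxb13, Hoxc10, Hoxd10 and Hoxd13 had 2 to 5 counts over all 18 libraries together. Hoxc9 reached 3 counts and Hoxd9 reached 6 in a library. Hoxd9 was above 0 in 17 of the 18 libraries.

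The transcript table showed which form of each gene was counted. Hoxb6 was split between a pair of protein-coding transcripts with 57.8% and 42.2% of its counts over all libraries. Of the Hoxb5 counts 22.2%, and of the Hoxb2 counts 12.7%, were assigned to transcripts with a retained intron. For Hoxa10 only 29.5%, and for Hoxd3 38.0%, of the counts were in protein-coding transcripts, so their gene counts mostly describe RNA with no annotated protein. In every tested member other than Hoxa10, Hoxd3 and Hoxb5, protein-coding transcripts held 83.7% or more of the counts. Strand use in counting is not given in the sources used here. Values of members whose exons overlap a gene on the other strand are uncertain for that reason: Hoxa3 shares up to 503 exon bases with Hoxaas2 and others, Hoxa4 shares 255 with Gm29430, Hoxa7 shares 586 with Hoxaas3, Hoxb2 and Hoxb3 share 953 and 2250 with Hoxb3os, Hoxb5 shares 100 with Hoxb5os, Hoxd3 and Hoxd4 each share 347 with Hoxd3os1, and Hoxd3 shares 21 with Haglr. On the same strand Hoxd3 and Hoxd4 share 388 bases with each other and 2225 and 1154 with Gm28230, Hoxa2 and Hoxa3 share 267 and 482 with Gm28308, and Hoxc5 shares 166 with Hoxc10.

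Itgav siRNA lowered Hoxb5, Hoxb6 and Hoxb9 in all 3 media and raised Hoxa5 in all 3. Hoxc13 was also called lower in all 3, but on few counts and after passing the filter through scramble libraries alone. It is counted among the lower calls given next for each medium. With TGF-β, 9 of the 25 tested members were called (36%), 3 higher and 6 lower, where 48.4% of 15832 genes were called (24.1% higher, 24.3% lower). With PDGF-BB 13 were called (52%), 6 higher and 7 lower, against 59.3% of all genes (29.4% and 29.9%). In unstimulated cells 9 were called (36%), 2 higher and 7 lower, against 53.4% of all genes (25.9% and 27.5%). A call is an adjusted p under 0.05 in edgeR's quasi-likelihood test with Benjamini-Hochberg adjustment over all genes tested. The difference between these shares was not tested, and nothing about the Hox genes is read from it. The median log2 fold change of the 25 was 0.04 with TGF-β, -0.12 with PDGF-BB and 0.04 unstimulated, against 0.01 over all genes in each.

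Hoxb9, which patterns the rib-bearing thorax in the mouse together with its paralogues, fell in each medium. It had 8.35, 9.71 and 7.92 CPM in siRNA cells with TGF-β, against 12.9, 14.5 and 11.9 CPM in scramble cells. With PDGF-BB it had 2.35, 3.59 and 4.15 CPM in siRNA cells, against 11.4, 10.8 and 11.2 CPM in scramble cells. Unstimulated, it had 4.67, 3.92 and 4.35 CPM in siRNA cells, against 11.1, 9.94 and 11.4 CPM in scramble cells. In every medium all siRNA libraries lay below all scramble libraries. The log2 fold changes were -0.60 ± 0.13 with TGF-β, -1.73 ± 0.15 with PDGF-BB and -1.33 ± 0.14 unstimulated (± SE; edgeR adjusted p = 0.000591, 1.19e-09 and 6.15e-08).

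Hoxb6 and Hoxb5, the genes of groups 6 and 5 in the same cluster, also fell. Hoxb6, expressed early in lateral plate mesoderm, had 14.5, 14.4 and 16.4 CPM in siRNA cells with TGF-β, against 23.4, 24.5 and 23.0 CPM in scramble cells. It had 19.0, 16.9 and 18.2 CPM with PDGF-BB in siRNA cells, against 30.9, 25.9 and 28.5 CPM in scramble cells. Unstimulated siRNA cells had 17.6, 16.4 and 15.1 CPM, against 27.6, 28.7 and 25.8 CPM in scramble cells. The groups did not overlap in any medium, and the fall was of similar size in each: -0.65 ± 0.08 with TGF-β, -0.66 ± 0.08 with PDGF-BB and -0.74 ± 0.08 unstimulated on the log2 scale (edgeR adjusted p = 1.01e-06, 2.3e-07 and 6.86e-08). Both Hoxb6 transcripts had lower group means in siRNA cells. The shorter had a mean of 108, 118 and 124 counts in siRNA cells with TGF-β, with PDGF-BB and unstimulated, against 185, 268 and 261 counts in scramble cells in that order. The longer had 165, 247 and 192 counts in siRNA cells, against 234, 309 and 306 counts in scramble cells.

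Hoxb5, which is known in the mouse for enteric neural crest and blood stem cells, had 17.2, 15.9 and 17.3 CPM in siRNA cells with TGF-β, against 22.1, 23.8 and 25.8 CPM in scramble cells. With PDGF-BB siRNA cells had 17.4, 15 and 15.9 CPM, against 18.6, 19.4 and 20.4 CPM in scramble cells. Unstimulated siRNA cells had 16.3, 15.8 and 17.2 CPM, against 24.9, 22.2 and 24.1 CPM in scramble cells. All siRNA values lay between 15 and 17.4 CPM whatever the medium, and the scramble values were lowest with PDGF-BB. The log2 fold changes were -0.51 ± 0.08, -0.28 ± 0.08 and -0.53 ± 0.08 with TGF-β, with PDGF-BB and unstimulated (edgeR adjusted p = 1.12e-05, 0.00439 and 4.28e-06). The mean count of its protein-coding transcript was 214, 265 and 227 in siRNA cells in these media, against 319, 321 and 411 in scramble cells. That of its retained-intron transcript was 89.9, 61.7 and 89.5 in siRNA cells, against 104, 74.1 and 82.1 in scramble cells.

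**Figure D2:**
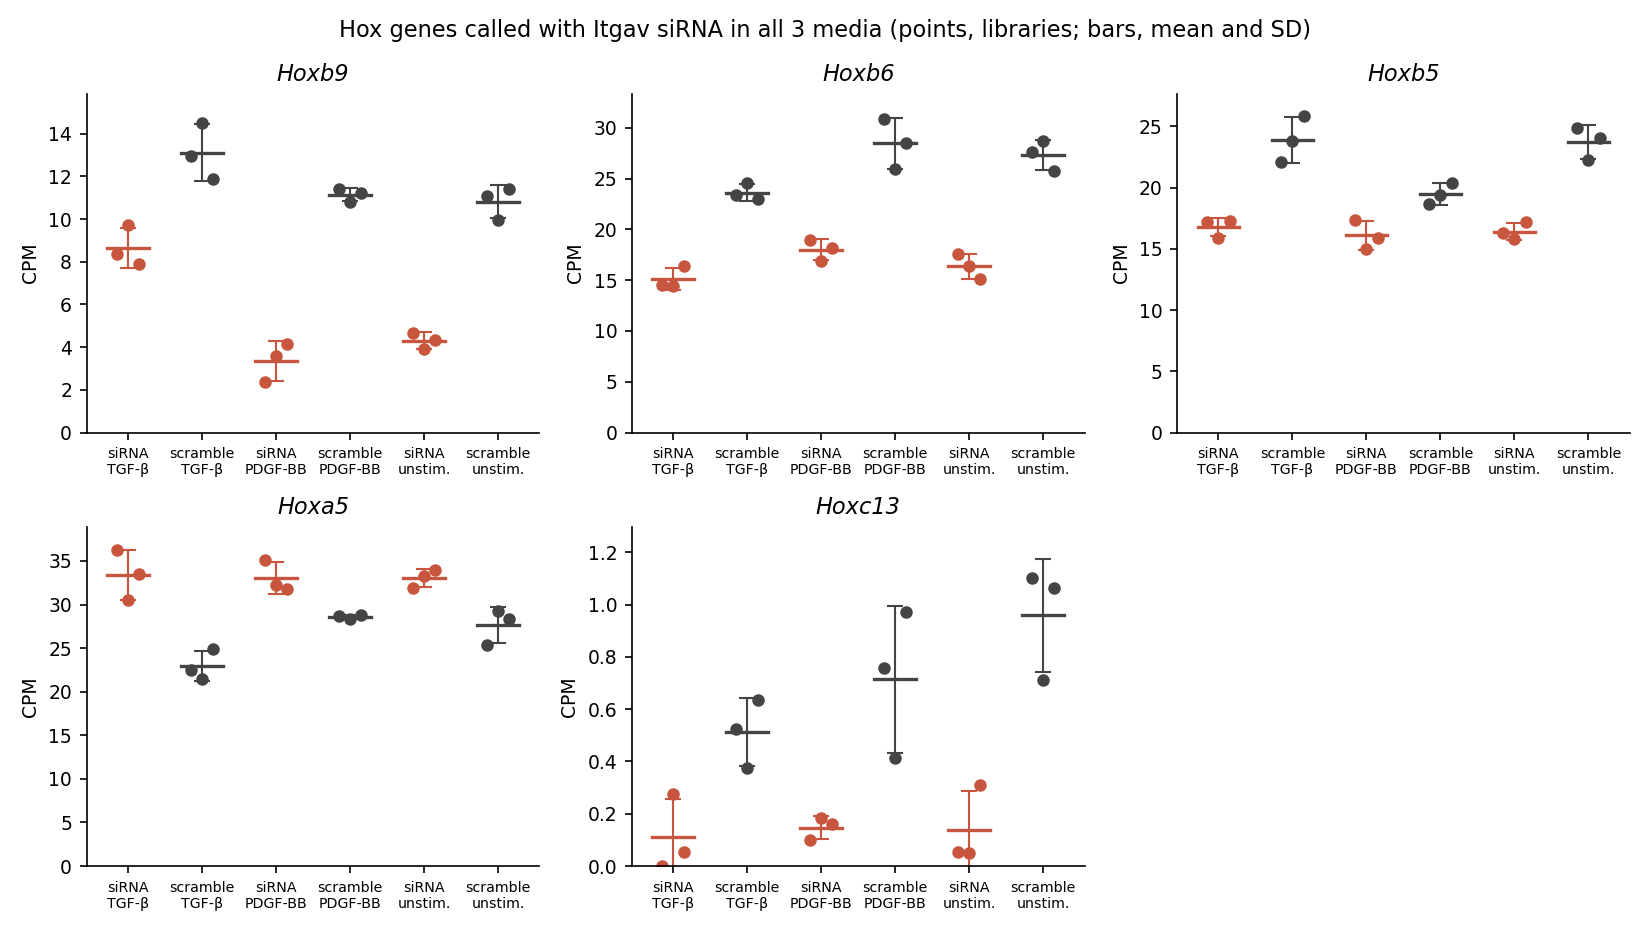
CPM of 5 Hox genes called with Itgav siRNA in all 3 media (one panel each; points are libraries, bars the mean and SD of 3, red siRNA, grey scramble; each y axis starts at 0). In Hoxb9, Hoxb6 and Hoxb5 every siRNA library lies below the scramble libraries of its medium, and in Hoxa5 every siRNA library lies above them. The siRNA libraries of Hoxc13 also lie below, but on few counts and after it passed the filter through scramble libraries alone.

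Hoxc13 was low throughout, and its counts are given for that reason. It passed the low-count filter through scramble libraries alone, so a lower level with siRNA is tied to how it entered the test. It had 0, 5 and 1 counts in siRNA cells with TGF-β, against 9, 7 and 11 in scramble cells. With PDGF-BB it had 2, 4 and 3 counts in siRNA cells, against 15, 8 and 21 in scramble cells, and unstimulated 1, 1 and 6 in siRNA cells, against 24, 14 and 22 in scramble cells. The groups did not overlap, and the log2 fold changes were -2.14 ± 0.72, -2.23 ± 0.63 and -2.74 ± 0.62 (edgeR adjusted p = 0.0181, 0.004 and 0.00073). The call with TGF-β was lost in 3 of the 6 fits that left out a library (scramble replicate 3, siRNA replicate 1 or siRNA replicate 3 with TGF-β), where the adjusted p reached 0.0801. With a mean of at least 1 CPM as the filter the gene was not tested.

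Hoxa5, which is needed for lung and for the cervicothoracic skeleton, rose. It had 36.3, 30.5 and 33.5 CPM in siRNA cells with TGF-β, against 22.5, 21.5 and 24.9 CPM in scramble cells. With PDGF-BB it had 35.1, 32.3 and 31.8 CPM in siRNA cells, against 28.7, 28.3 and 28.8 CPM in scramble cells. Unstimulated siRNA cells had 31.9, 33.2 and 34.0 CPM, against 25.4, 29.3 and 28.4 CPM in scramble cells. The siRNA libraries lay above the scramble libraries in each medium, by 0.54 ± 0.07, 0.21 ± 0.07 and 0.26 ± 0.07 log2 units (edgeR adjusted p = 2.59e-06, 0.0159 and 0.00463). Without siRNA replicate 1 with PDGF-BB the call in that medium was lost (adjusted p = 0.0828).

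Other members were called in 1 or 2 media. Hoxa6, the low gene between Hoxa5 and Hoxa7, had 13, 19 and 27 counts in siRNA cells with TGF-β, against 8, 6 and 7 in scramble cells, and 25, 27 and 26 with PDGF-BB in siRNA cells, against 3, 15 and 11 in scramble cells. Its log2 fold changes were 1.44 ± 0.45 and 1.41 ± 0.42 (edgeR adjusted p = 0.0118 and 0.00592), and the call with TGF-β was lost without siRNA replicate 3 with TGF-β (adjusted p = 0.0723). Unstimulated, it had 21, 13 and 9 counts in siRNA cells, against 13, 11 and 9 in scramble cells, which overlap. Hoxa2, the selector of the second pharyngeal arch, had 10.7, 9.11 and 9.16 CPM with PDGF-BB in siRNA cells, against 7.17, 7.26 and 7.03 CPM in scramble cells (0.43 ± 0.12 log2, edgeR adjusted p = 0.00332). Unstimulated it had 9.98, 10.3 and 10.8 CPM in siRNA cells, against 8.16, 8.88 and 7.99 CPM in scramble cells (0.31 ± 0.12 log2, adjusted p = 0.0277), a call lost without unstimulated scramble replicates 1 or 3 or siRNA replicates 2 or 3 (adjusted p up to 0.0807) and with no low-count filter (0.0654). Hoxb4, known for expanding blood stem cells when overexpressed, had 30.7, 30.8 and 28.2 CPM with PDGF-BB in siRNA cells, against 23.2, 23.9 and 23.9 CPM in scramble cells (0.34 ± 0.08 log2, edgeR adjusted p = 0.000688). It was not called in the other media, where the groups overlapped.

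The remaining calls with siRNA were smaller or rested on few counts. Unstimulated, Hoxa4 had 5.10, 5.02 and 6.27 CPM in siRNA cells, against 6.60, 6.75 and 7.85 CPM in scramble cells (-0.37 ± 0.13 log2, edgeR adjusted p = 0.0196), and Hoxb2, which acts in the hindbrain, had 15.6, 13.6 and 13.2 CPM, against 17.6, 19.5 and 16.6 CPM (-0.34 ± 0.09 log2, adjusted p = 0.002). The Hoxa4 call was lost without unstimulated scramble replicate 3, siRNA replicate 1 or siRNA replicate 2 (adjusted p up to 0.113). Hoxd8 had 21, 17 and 12 counts with PDGF-BB in siRNA cells, against 32, 37 and 27 in scramble cells (-0.95 ± 0.36 log2, edgeR adjusted p = 0.0269), and Hoxc5 had 12, 7 and 11 counts with TGF-β in siRNA cells, against 21, 12 and 29 in scramble cells, which overlap at 12 (-1.08 ± 0.44 log2, adjusted p = 0.0459). The Hoxd8 call was lost without scramble replicates 1 or 2 or siRNA replicates 2 or 3 with PDGF-BB (adjusted p up to 0.0962), and the Hoxc5 call in every such fit other than that without scramble replicate 2 with TGF-β (up to 0.242) and in 2 of 7 other settings (up to 0.0569). Smaller calls were Hoxb7 with TGF-β (0.32 ± 0.09 log2, with overlap between the groups), and with PDGF-BB Hoxb3 (0.33 ± 0.10), Hoxa3 (0.27 ± 0.09, also overlapping) and Hoxa7 (-0.15 ± 0.06). Each of these was lost on leaving out some library: scramble or siRNA replicate 1 with TGF-β for Hoxb7 (adjusted p up to 0.0769), and with PDGF-BB scramble replicate 1 for Hoxb3 (0.0567), scramble replicates 1 or 2 or siRNA replicate 1 for Hoxa3 (0.122) and scramble replicates 2 or 3 or siRNA replicate 2 for Hoxa7 (0.176). Of 7 other settings, 3 ended the Hoxa7 call (adjusted p up to 0.0779) and 1 the Hoxa3 call (0.0576).

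Neighbours in 1 cluster thus moved by different amounts. Between the lowered Hoxb6 and Hoxb9, the log2 fold changes of Hoxb8 were 0.06 ± 0.09, -0.13 ± 0.09 and 0.04 ± 0.09 with TGF-β, with PDGF-BB and unstimulated, and those of Hoxb7 were 0.32 ± 0.09, -0.12 ± 0.09 and -0.07 ± 0.09. The sum of the Hoxb cluster was 62.0 ± 1.03, 58.8 ± 1.92 and 56.0 ± 1.72 CPM per kb in siRNA cells with TGF-β, with PDGF-BB and unstimulated, against 68.1 ± 1.15, 66.6 ± 1.66 and 67.9 ± 0.951 in scramble cells (SD, n = 3 each). The sum of the Hoxa cluster was 49.2 ± 2.52, 49.9 ± 2.39 and 50.5 ± 0.781 CPM per kb in siRNA cells, against 42.5 ± 2.29, 46.8 ± 1.40 and 48.5 ± 0.875 in scramble cells. Hoxa held 42.9% to 46.0% of the Hox total in the means of the siRNA groups, against 37.2% to 40.5% in the scramble groups, and Hoxb held 51.0% to 54.1%, against 56.7% to 59.7%. The 3 siRNA comparisons share no library. Over the 25 tested members their log2 fold changes had Pearson correlations of 0.756 (TGF-β with unstimulated), 0.783 (PDGF-BB with unstimulated) and 0.771 (TGF-β with PDGF-BB), and Spearman correlations of 0.548, 0.409 and 0.517. This is a description over genes, which are not replicates, and Hoxc13 and Hoxb9 lie far from the rest.

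**Figure D3:**
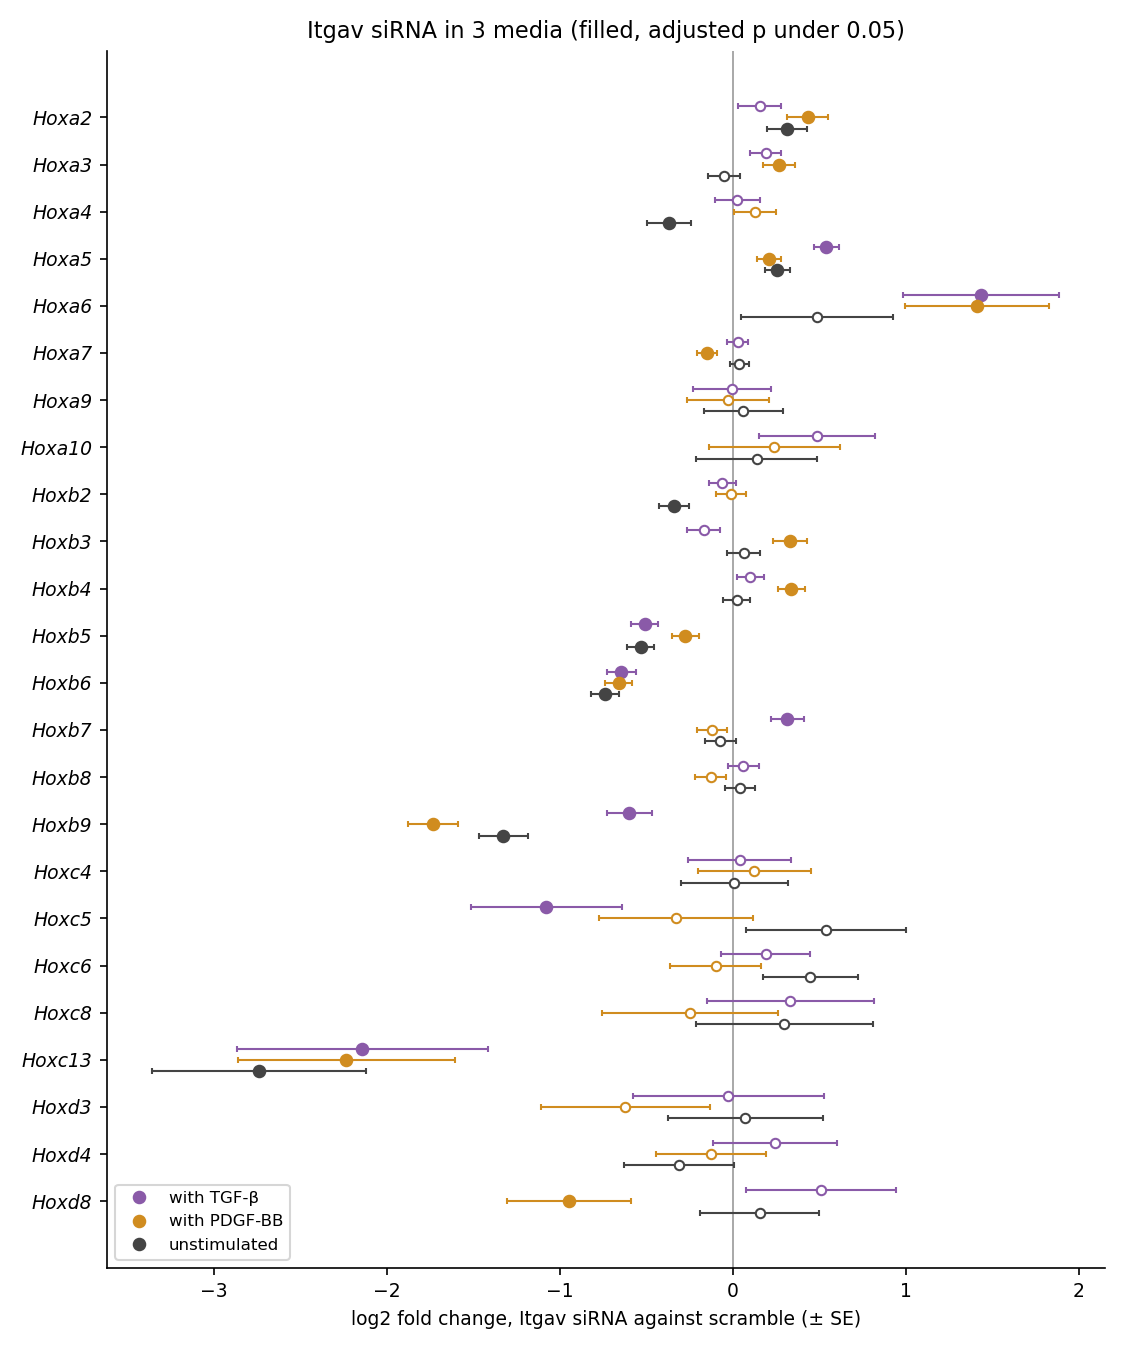
Log2 fold change of the tested Hox genes of paralogue groups 2 to 13, Itgav siRNA against scramble, with TGF-β, with PDGF-BB and unstimulated (x axis; bars are SE; filled points have an adjusted p under 0.05). Hoxb5, Hoxb6 and Hoxb9 lie left of 0 in all 3 media and Hoxa5 lies right of 0 in all 3, while Hoxb8 stays within 0.13 of 0. Hoxc13 also lies left of 0 in all 3, on few counts and after passing the filter through scramble libraries alone.

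TGF-β raised Hoxa3, Hoxb2 and Hoxb3 and lowered Hoxa7 and Hoxb7 in scramble cells, and moved 5 members the same way in siRNA and scramble cells. Hoxa3, Hoxb2 and Hoxb4 rose, and Hoxa2 and Hoxa7 fell, in both. Of these, the scramble call of Hoxa2 was lost in all 7 other settings, and that of Hoxb4 in 3 of 6 fits leaving out a library. In siRNA cells 7 of 25 members were called (28%), 5 higher and 2 lower, where 57.5% of all genes were called (27.9% higher, 29.6% lower). In scramble cells 12 were called (48%), 6 higher and 6 lower, against 48.3% of all genes (23.4% and 24.8%). The medians over the 25 members were 0.15 and 0.00 on the log2 scale, against -0.02 and -0.01 over all genes. These comparisons share no library, and the log2 fold changes in siRNA and in scramble cells had the same sign in 20 of 25 members (Pearson 0.603, Spearman 0.669, as a description over genes).

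Hoxb2 had 25.4, 24.7 and 22.9 CPM in TGF-β-treated siRNA cells, against 15.6, 13.6 and 13.2 CPM in unstimulated siRNA cells. In scramble cells it had 25.8, 24.5 and 25.8 CPM with TGF-β, against 17.6, 19.5 and 16.6 CPM without. All TGF-β libraries lay above all unstimulated ones, by 0.78 ± 0.08 and 0.50 ± 0.08 log2 units (edgeR adjusted p = 4.52e-08 and 2.2e-05). Hoxa3, needed for the third pharyngeal arch and its artery, had 29.2, 25.7 and 27.6 CPM with TGF-β in siRNA cells, against 16.0, 17.9 and 18.04 CPM unstimulated. In scramble cells it had 22.7, 23.8 and 25.8 CPM with TGF-β, against 16.8, 18.1 and 18.9 CPM. Its log2 fold changes were 0.67 ± 0.09 and 0.42 ± 0.09 (edgeR adjusted p = 1.69e-06 and 0.000562), again with no overlap. Hoxb4 had 27.4, 29.6 and 28.8 CPM with TGF-β in siRNA cells, against 25.9, 23.2 and 20.7 CPM unstimulated (0.30 ± 0.08 log2, edgeR adjusted p = 0.00237). In scramble cells its change was 0.22 ± 0.08 (adjusted p = 0.0235), a call lost without TGF-β replicate 1, TGF-β replicate 2 or unstimulated replicate 1 (adjusted p up to 0.117).

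Hoxb3 was called in scramble cells and Hoxb9 in siRNA cells. Hoxb3 had 28.8, 32.0 and 25.9 CPM with TGF-β in siRNA cells, against 23.1, 25.9 and 28.7 CPM unstimulated, which overlap. In scramble cells it had 33.3, 34.8 and 29.2 CPM with TGF-β, against 25.3, 24.6 and 24.6 CPM (0.39 ± 0.10 log2, edgeR adjusted p = 0.002). Hoxb9 in siRNA cells had 8.35, 9.71 and 7.92 CPM with TGF-β, against 4.67, 3.92 and 4.35 CPM unstimulated (1.01 ± 0.15 log2, edgeR adjusted p = 3.84e-06). In scramble cells its log2 change was 0.28 ± 0.13 (adjusted p = 0.0757). The difference between siRNA and scramble cells had an adjusted p of 0.00839 for Hoxb9 and 0.254 for Hoxb3 (edgeR interaction).

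Hoxa7 fell by a similar amount in both kinds of cells. It had 38.9, 37.6 and 41.8 CPM with TGF-β in siRNA cells, against 50.0, 49.2 and 48.3 CPM unstimulated (-0.32 ± 0.06 log2, edgeR adjusted p = 6.8e-05). In scramble cells it had 38.6, 37.0 and 40.6 CPM with TGF-β, against 50.0, 48.0 and 45.6 CPM (-0.31 ± 0.06 log2, adjusted p = 0.000138). Hoxb7, its paralogue, had 23.0, 18.1 and 21.1 CPM with TGF-β in siRNA cells, against 21.9, 21.8 and 22.9 CPM, which overlap. In scramble cells Hoxb7 had 15.5, 16.1 and 18.5 CPM with TGF-β, against 23.6, 24 and 22.4 CPM (-0.49 ± 0.09 log2, edgeR adjusted p = 0.000152). Hoxa2 had 8.98, 6.90 and 6.69 CPM with TGF-β in siRNA cells, against 9.98, 10.3 and 10.8 CPM (-0.46 ± 0.12 log2, edgeR adjusted p = 0.00207). In scramble cells the Hoxa2 change was -0.31 ± 0.12 (adjusted p = 0.0444), and none of the 7 other settings of the fit kept that call (adjusted p up to 0.0951), nor any fit leaving out a library other than TGF-β replicate 3 (up to 0.215).

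The remaining calls with TGF-β were smaller or rested on few counts. In scramble cells Hoxc5 had 21, 12 and 29 counts with TGF-β, against 17, 7 and 5 unstimulated (1.33 ± 0.44 log2, edgeR adjusted p = 0.0153), Hoxc6 had 45, 45 and 21, against 31, 21 and 30 (0.66 ± 0.27, adjusted p = 0.0487), and Hoxd8 had 8, 9 and 11, against 42, 20 and 15 (-1.21 ± 0.40, adjusted p = 0.0159). The counts of Hoxc5 and Hoxc6 overlapped between the groups, and those of Hoxd8 did not. Leaving out a library ended the call in 3 of 6 fits for Hoxc5 (unstimulated replicates 2 or 3, TGF-β replicate 3; adjusted p up to 0.107), in 5 for Hoxc6 (all but TGF-β replicate 3; up to 0.212) and in 3 for Hoxd8 (unstimulated replicate 1, TGF-β replicates 1 or 2; up to 0.179). The Hoxc6 call was also lost in 5 of 7 other settings of the fit, DESeq2 among them (adjusted p up to 0.0827). Hoxa5 fell in scramble cells by 0.27 ± 0.07 log2 units (edgeR adjusted p = 0.00481), and Hoxb6 fell by 0.21 ± 0.08 (adjusted p = 0.0289), a call lost without unstimulated replicates 1 or 2 or TGF-β replicates 1 or 3 (up to 0.121) and in 3 of 7 other settings, DESeq2 among them (up to 0.0678). Hoxa4 rose in siRNA cells by 0.32 ± 0.13 (adjusted p = 0.0423), with overlap between the groups, lost without replicates 1 or 2 of either group (up to 0.184) and in 3 of 7 other settings (up to 0.127).

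Read along the Hoxb cluster in scramble cells, the log2 fold changes with TGF-β were 0.50, 0.39, 0.22, 0.01, -0.21, -0.49, 0.00 and 0.28 for Hoxb2 to Hoxb9 in order, with SEs of 0.07 to 0.13. They stepped down from Hoxb2 to Hoxb7 and returned to 0 or above for Hoxb8 and Hoxb9. In siRNA cells the same genes had 0.78, 0.16, 0.30, 0.03, -0.12, -0.10, 0.02 and 1.01, which do not fall step by step from Hoxb2 to Hoxb7. The order along the cluster was read from these values and was not tested. In scramble cells the calls of Hoxb4 and Hoxb6 were lost in some fits. Smooth muscle markers were higher with TGF-β in both kinds of cells, 5 of 7 in siRNA cells and 7 of 7 in scramble cells, and 2 were lower in siRNA cells.

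**Figure D4:**
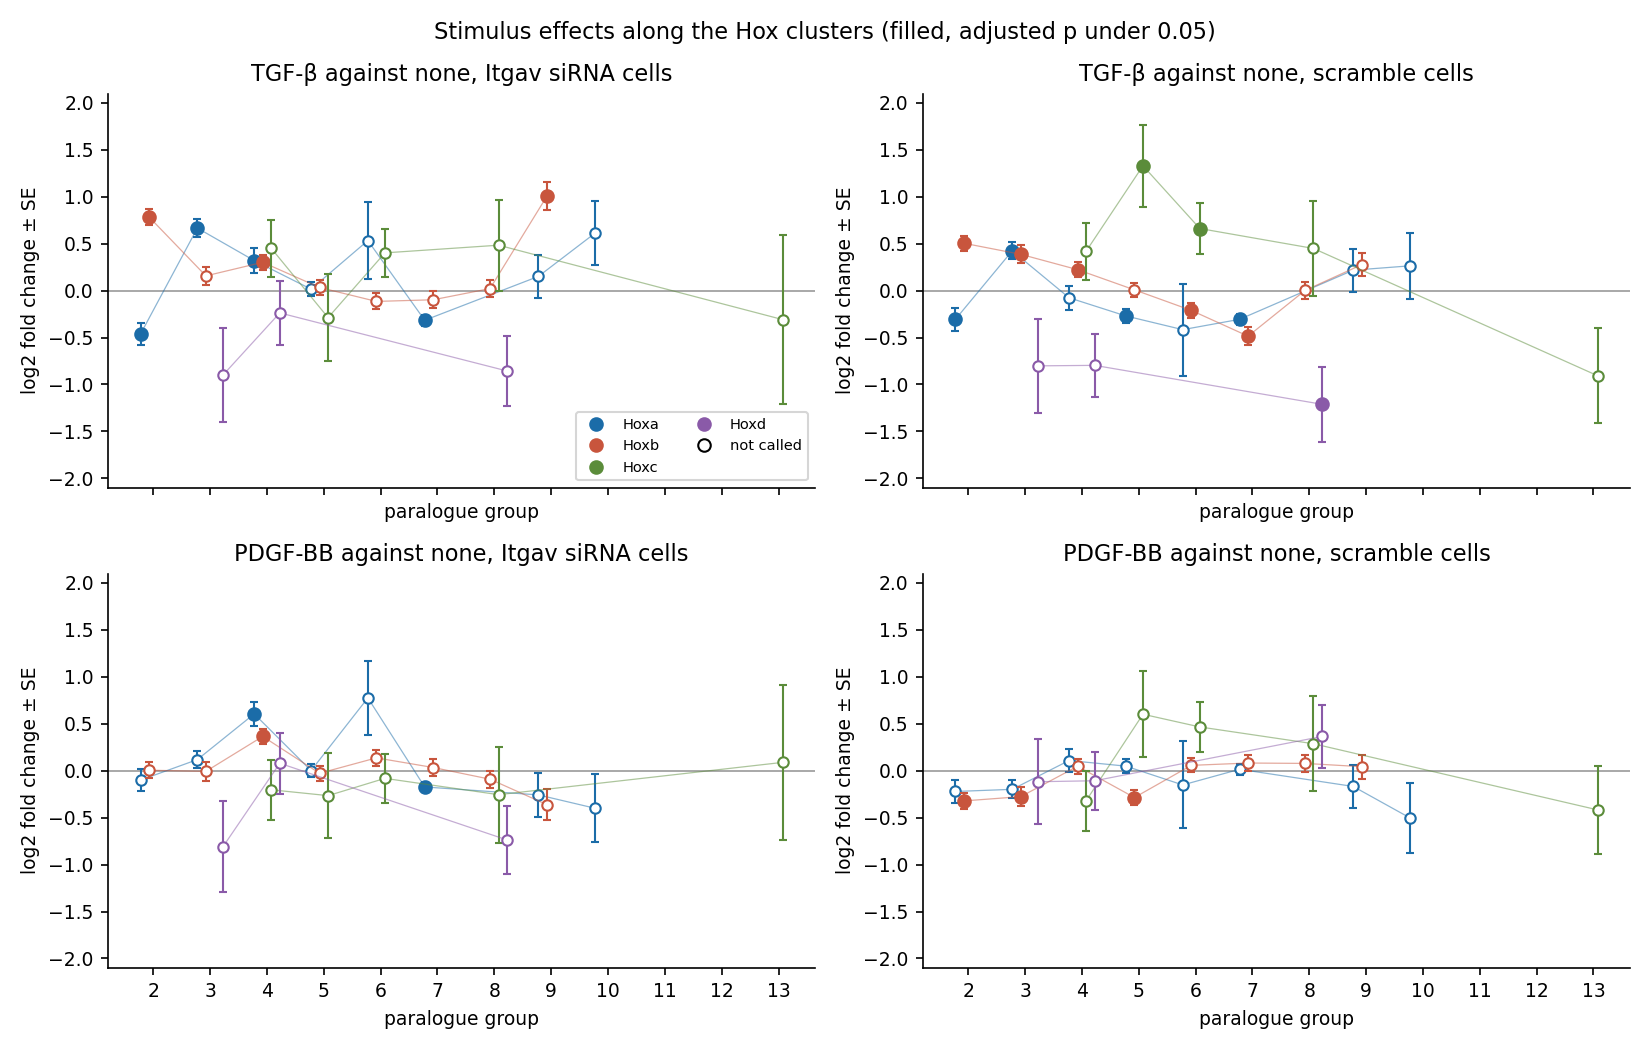
Log2 fold change of the tested Hox genes of paralogue groups 2 to 13 with TGF-β (top) and PDGF-BB (bottom) against unstimulated cells, in Itgav siRNA cells (left) and scramble cells (right), by paralogue group (x axis) and cluster (colour); bars are SE, filled points have an adjusted p under 0.05, and thin lines join genes of 1 cluster. With TGF-β the Hoxb genes step down from 0.50 at group 2 to -0.49 at group 7 in scramble cells, but do not fall step by step in siRNA cells. With PDGF-BB in siRNA cells Hoxa4 and Hoxb4 are the filled points above 0, at 0.61 and 0.37.

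PDGF-BB raised Hoxa4 and Hoxb4 in siRNA cells and lowered Hoxb2, Hoxb3 and Hoxb5 in scramble cells. These calls in 1 kind of cells do not by themselves show a difference between the kinds. In the edgeR interaction 1 of the 25 members was called with PDGF-BB, Hoxb4, and that call was lost in 9 of 12 fits leaving out a library. In siRNA cells 4 of 25 members were called (16%), 2 higher and 2 lower, where 36.4% of all genes were called (17.2% higher, 19.2% lower). In scramble cells 4 were called (16%), all lower, against 36.1% of all genes (16.9% higher, 19.2% lower). The medians over the members were -0.08 and -0.11, against -0.01 and 0.01 over all genes. Unlike with TGF-β, the log2 fold changes in siRNA and in scramble cells showed little agreement. They had the same sign in 13 of 25 members (Pearson 0.0753, Spearman 0.06, as a description over genes). With 4 of 25 members called in each kind of cells, this low agreement does not by itself show that the responses differ.

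In siRNA cells PDGF-BB raised both group 4 genes of the expressed clusters. Hoxa4 had 8.36, 8.28 and 8.31 CPM with PDGF-BB, against 5.10, 5.02 and 6.27 CPM unstimulated (0.61 ± 0.13 log2, edgeR adjusted p = 0.000642), and Hoxb4 had 30.7, 30.8 and 28.2 CPM, against 25.9, 23.2 and 20.7 CPM (0.37 ± 0.08 log2, adjusted p = 0.000727). Both were without overlap. Hoxa7 had 45.7, 40.7 and 44.5 CPM, against 50.0, 49.2 and 48.3 CPM (-0.17 ± 0.06 log2, adjusted p = 0.0206), lost without unstimulated replicate 1 or PDGF-BB replicate 2 (up to 0.124) and with protein-coding transcripts only (0.0803). In scramble cells PDGF-BB lowered Hoxb2 to 13.99, 13.7 and 15.1 CPM, against 17.6, 19.5 and 16.6 CPM unstimulated (-0.32 ± 0.09 log2, edgeR adjusted p = 0.00502). It lowered Hoxb5 to 18.6, 19.4 and 20.4 CPM, against 24.9, 22.2 and 24.1 CPM (-0.29 ± 0.08 log2, adjusted p = 0.00483). Hoxb3 had 17.2, 21.7 and 22.6 CPM with PDGF-BB, against 25.3, 24.6 and 24.6 CPM (-0.28 ± 0.10 log2, adjusted p = 0.0333), a call lost without any 1 of the unstimulated libraries or PDGF-BB replicate 1 (up to 0.218) and in 2 of 7 other settings (up to 0.0702). None of these 3 was called with PDGF-BB in siRNA cells. There Hoxb2 had 4.07 ± 0.365 CPM per kb, against 4.05 ± 0.360 unstimulated (SD, n = 3). Hoxb5 had 5.78 ± 0.427, against 5.88 ± 0.253, and Hoxb3 had 6.07 ± 0.233, against 6.10 ± 0.657. TGF-β had the opposite sign for Hoxb2 and Hoxb3 in scramble cells, at 0.50 and 0.39, though both comparisons share the unstimulated libraries.

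The siRNA effect was next compared between media. With TGF-β against unstimulated it differed for 2 of 25 members (8%), where 23.2% of all genes were called (12.2% with a positive and 11% with a negative difference). For Hoxb9 the siRNA effect was -0.60 with TGF-β and -1.33 unstimulated, a difference of 0.73 ± 0.19 log2 units (edgeR adjusted p = 0.00839). For Hoxb7 the effects were 0.32 and -0.07, a difference of 0.39 ± 0.13 (adjusted p = 0.0351), which was called in 3 of 12 fits leaving out a library, those without unstimulated scramble replicate 3, scramble TGF-β replicate 3 or siRNA TGF-β replicate 2 (adjusted p up to 0.131 in the others). For Hoxa5 the difference was 0.29 ± 0.10 (adjusted p = 0.0505), and for Hoxb6 it was 0.10 ± 0.12 (adjusted p = 0.616). With PDGF-BB against unstimulated 1 of 25 differed (4%), against 18.8% of all genes (9.51% and 9.32%): Hoxb4, with effects of 0.34 and 0.02 and a difference of 0.32 ± 0.11 (edgeR adjusted p = 0.0493). That call was kept in 3 of 12 fits leaving out a library, those without replicate 1 of either unstimulated group or siRNA PDGF-BB replicate 3 (adjusted p up to 0.156 in the others), and lost in 3 of 7 other settings.

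Not called in any of the 9 comparisons were 7 tested members, Hoxa9, Hoxa10, Hoxb8, Hoxc4, Hoxc8, Hoxd3 and Hoxd4. Hoxb8, known in the mouse for microglia and grooming, is the one among them with a high level, and its group means ran from 16.0 to 17.5 CPM, a ratio of 1.09. Its log2 fold changes over the 7 comparisons between groups ran from -0.13 to 0.08 with SEs of 0.09. The other 6 had group means of 0.389 to 2.90 CPM, where SEs were wider. Among all tested members the ratio of the highest to the lowest group mean was largest for Hoxc13 (8.73) and Hoxb9 (3.90). The lowest Hoxc13 mean, 0.110 CPM in siRNA cells with TGF-β, lay under the 0.137 to 0.174 CPM of 3 counts, so its ratio is uncertain.

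Of 31 other annotated genes in or beside the clusters, among them antisense and other non-coding RNAs, 10 passed the filter. With Itgav siRNA 3, 4 and 4 of these were called with TGF-β, with PDGF-BB and unstimulated. Of all genes 48.4%, 59.3% and 53.4% were called. Halr1, a non-coding RNA on chromosome 6, was the clearest. It had 108, 112 and 100 counts with TGF-β in siRNA cells, against 16, 23 and 16 in scramble cells, and 124, 92 and 89 with PDGF-BB, against 26, 8 and 25. Unstimulated it had 30, 20 and 43 counts in siRNA cells, against 12, 14 and 13 in scramble cells. The siRNA libraries lay above the scramble libraries in each medium, by 2.51 ± 0.29, 2.37 ± 0.28 and 1.35 ± 0.35 log2 units (edgeR adjusted p = 1.7e-07, 2.57e-07 and 0.00229). Hoxaas2, an antisense RNA that shares exon bases with Hoxa3, had 93.5, 116 and 91.6 counts with TGF-β in scramble cells, against 176, 158 and 153 unstimulated (-0.47 ± 0.14 log2, edgeR adjusted p = 0.00804), where Hoxa3 rose. 5730596B20Rik, which also shares exon bases with Hoxa3 on the other strand, had 103, 99 and 64.4 counts, against 41, 38 and 34 (1.46 ± 0.23 log2, adjusted p = 1.56e-05). Without strand, reads of Hoxa3 and of these genes cannot be told apart where they overlap.

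Genes of HOX partner proteins were also called. Of 9 TALE genes (Meis, Pbx and Pknox), 7, 8 and 6 were called with Itgav siRNA with TGF-β, with PDGF-BB and unstimulated. The shares over all genes were 48.4%, 59.3% and 53.4%, and the difference from them was not tested. Meis1 averaged 16.9 ± 1.20, 29.9 ± 1.62 and 25.7 ± 1.29 CPM in siRNA cells in these media, against 12.2 ± 0.368, 17.3 ± 1.77 and 16.1 ± 0.652 CPM in scramble cells (SD, n = 3; 0.47 ± 0.09, 0.78 ± 0.08 and 0.67 ± 0.08 log2; edgeR adjusted p = 9.28e-05, 1.26e-08 and 2.17e-07). Meis2 rose by 0.49 ± 0.07, 0.56 ± 0.06 and 0.39 ± 0.06 log2 units, and Pbx4 fell to 1.47 ± 0.213, 1.92 ± 0.162 and 3.61 ± 0.392 CPM, against 3.28 ± 0.653, 4.55 ± 0.142 and 6.05 ± 0.776 CPM in scramble cells. The list median was 0.24, 0.01 and 0.11, against 0.01 over all genes in each medium. With TGF-β 8 of the 9 were called in siRNA cells (3 higher, 5 lower), against 57.5% of all genes. In scramble cells 5 were called (all lower), against 48.3% of all genes. Meis2 fell by 0.43 ± 0.06 in siRNA and 0.54 ± 0.07 in scramble cells, and Meis1 fell by 0.60 ± 0.08 and 0.40 ± 0.09. PDGF-BB gave 4 calls in siRNA cells (3 higher) and 3 in scramble cells (1 higher), against 36.4% and 36.1% of all genes.

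Of 27 Polycomb and Trithorax regulators, which silence or keep active the Hox clusters, 14, 16 and 17 were called with siRNA with TGF-β, with PDGF-BB and unstimulated, of which 10, 11 and 13 were higher, and the medians were 0.15, 0.19 and 0.26. These are 51.9%, 59.3% and 63% of the list, near the 48.4%, 59.3% and 53.4% of all genes. Ezh1, a methyltransferase subunit of Polycomb complex 2, averaged 26.5 ± 0.387, 30.9 ± 0.894 and 37.4 ± 1.48 CPM in siRNA cells, against 20.8 ± 0.193, 17.5 ± 0.982 and 22.0 ± 0.432 CPM in scramble cells (edgeR adjusted p = 4.6e-05, 8.75e-11 and 1.66e-10). Ezh2, the alternative methyltransferase of that complex, went the other way and averaged 23.8 ± 0.945, 24.9 ± 2.13 and 29.6 ± 2.96 CPM in siRNA cells, against 32.7 ± 2.66, 39.1 ± 2.19 and 42.1 ± 3.05 CPM in scramble cells (edgeR adjusted p = 0.000108, 4.51e-07 and 1.39e-05). Men1, which encodes menin of the MLL complex, fell by 0.43 ± 0.07, 0.76 ± 0.07 and 0.57 ± 0.07 log2 units. With TGF-β 15 were called in siRNA cells and 12 in scramble cells, 13 and 10 of them lower, among them Cbx7 (-1.64 ± 0.19 and -1.22 ± 0.21). With PDGF-BB 14 and 7 were called, 11 and 6 of them lower. The shares over all genes were 57.5% and 48.3% with TGF-β, and 36.4% and 36.1% with PDGF-BB.

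A list of 18 genes held retinoid and caudal genes, the classical inputs to Hox transcription, and Gdf11, which is neither. Of the 18, 12 were tested, Gdf11 among them, and it stays in the counts below. Cdx1, Cdx2 and Cdx4 did not pass the filter. With siRNA 7, 9 and 9 were called with TGF-β, with PDGF-BB and unstimulated, where 48.4%, 59.3% and 53.4% of all genes were called. Cyp26b1, which degrades retinoic acid, averaged 103 ± 4.496, 104 ± 3.49 and 337 ± 8.70 CPM in siRNA cells, against 206 ± 2.38, 267 ± 2.96 and 499 ± 10.4 CPM in scramble cells. Aldh1a1, which makes retinoic acid, averaged 456 ± 17.7, 714 ± 23.98 and 1133 ± 10.6 CPM, against 1122 ± 46.0, 1664 ± 8.67 and 1806 ± 21.6 CPM. Both fell in each medium (edgeR adjusted p of 4.47e-11 or less). Aldh1a3, another enzyme that makes retinoic acid, rose in each: it averaged 53.0 ± 0.483, 17.9 ± 1.07 and 25.3 ± 0.894 CPM in siRNA cells, against 16.9 ± 2.91 (TGF-β), 10.8 ± 0.455 (PDGF-BB) and 14.4 ± 0.885 (unstimulated) CPM in scramble cells (edgeR adjusted p = 4.42e-13, 7.46e-07 and 7.25e-08). Crabp2, a retinoic acid carrier, averaged 45.4 ± 0.890 CPM in siRNA cells with TGF-β, against 3.24 ± 0.858 CPM in scramble cells with TGF-β (3.81 ± 0.16 log2, edgeR adjusted p = 1.09e-14). TGF-β gave 9 calls in siRNA cells and 8 in scramble cells, against 57.5% and 48.3% of all genes. PDGF-BB gave 9 and 7, against 36.4% and 36.1% of all genes.

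Of 49 other transcription factors known for position, 33 were tested. With siRNA 16, 13 and 14 were called with TGF-β, with PDGF-BB and unstimulated, against 48.4%, 59.3% and 53.4% of all genes. Prrx1, a homeobox gene of limb and craniofacial mesenchyme, averaged 157 ± 6.35, 330 ± 15.4 and 187 ± 3.69 CPM in siRNA cells, against 94.3 ± 6.72, 156 ± 7.75 and 102 ± 2.12 CPM in scramble cells (edgeR adjusted p = 1.17e-10, 8.5e-14 and 4.4e-12). TGF-β raised Foxc2, a factor of aortic arch and valve development, by 1.19 ± 0.07 log2 units in siRNA cells and by 1.32 ± 0.07 in scramble cells, and in all it gave 24 and 15 calls. PDGF-BB gave 11 and 12. The shares over all genes were 57.5% and 48.3% with TGF-β, and 36.4% and 36.1% with PDGF-BB. The medians of this list lay between -0.12 and 0.27 over the 7 comparisons between groups. All of these lists were chosen with earlier results of these data known, and their counts describe them beside the background given above.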

How the data were processed

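Gene and transcript tables of 18 libraries were used. Their values are estimated counts as deposited by the authors, made with HISAT2 2.2.1 and StringTie 2.1.6 on mm10, per the submitters' processing notes. Of the values above 0, 76.17% were whole. Strand use and the annotation release are not stated in the sources used here. GENCODE M21 (GRCm38) gave exon lengths and positions, and it held 90.82% of the gene IDs and all 39 members.

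Estimated counts were rounded and tested with edgeR 4.0.16 (R 4.3.3), using TMM scaling (factors 0.925 to 1.07), filterByExpr with a minimum count of 10, and quasi-likelihood tests on 6 group means fitted over all 18 libraries (12 residual degrees of freedom, 15832 genes). P-values were adjusted by Benjamini-Hochberg per comparison, with calls made under 0.05. The SE is the log2 fold change divided by the square root of F. Interactions tested whether the siRNA effect differed between media. Alternatives were other filters, size factors, DESeq2 1.42.0, a replicate block, protein-coding transcripts, the compared groups alone, and each library left out. The fit was tested on simulated data. Figures used matplotlib 3.10.9.

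Same-numbered libraries did not deviate together (median r 2.32e-05), so the numbers were not taken as pairs. Some members and list genes are not reported here, but they stay in the counts, sums and medians. The other tested members are described. From each further list, genes were named from up to 4 called members with the smallest p per comparison. Members and lists were chosen with earlier results of these data known.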

Additional observations from a re-analysis of the deposited data

Results flagged for a closer look

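The siRNA effect on 3 Hox genes differed between media by a test of the difference itself (edgeR interaction, Benjamini-Hochberg adjusted), 2 of 25 with TGF-β (23.2% of all genes) and 1 of 25 with PDGF-BB (18.8% of all genes). For Hoxb9 the log2 effect with TGF-β lay 0.73 ± 0.19 above that in unstimulated cells (adjusted p = 0.00839). For Hoxb7 the difference with TGF-β was 0.39 ± 0.13 (adjusted p = 0.0351), a call lost in 9 of 12 fits leaving out a library (adjusted p up to 0.131). For Hoxb4 the difference with PDGF-BB was 0.32 ± 0.11 (adjusted p = 0.0493), lost in 9 of 12 such fits (up to 0.156) and in 3 of 7 other settings (up to 0.0742). Single libraries were not tested as outliers within groups of 3, and each was left out in turn instead.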

How the results depend on the processing

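Of 61 calls of Hox genes, 39 were kept in every setting run and 22 were lost in some; no value changed sign with a call. Leaving out 1 library gave 7 to 11 calls with TGF-β in scramble cells (7 without unstimulated scramble replicate 1, against 12), 6 to 8 in siRNA cells, 3 to 5 with PDGF-BB in either kind of cells, and 6 to 9, 10 to 12 and 7 to 9 with siRNA with TGF-β, with PDGF-BB and unstimulated. The interaction calls ranged from 1 to 3 with TGF-β and from 0 to 3 with PDGF-BB. The PDGF-BB interaction gave 0 calls in edgeR with no low-count filter (8 at an unadjusted p under 0.05) and 0 with the compared groups alone (7 at an unadjusted p under 0.05), against 1 by DESeq2. The replicate block gave 10 calls with TGF-β in scramble cells, and 8 of 18 libraries correlated best with their own number. Dividing by count-weighted transcript length gave cluster sums of 61.0 (Hoxa), 83.0 (Hoxb), 2.79 (Hoxc) and 1.75 (Hoxd) CPM per kb in unstimulated scramble cells. The causes were not tested. Depth limits the members with few counts: Hoxc13, Hoxc5 and Hoxa6 were not tested with a mean of at least 1 CPM as the filter.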
